A study of Macaca fascicularis with 24 samples.

Results

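The glucocorticoid receptor, NR3C1, and 9 genes that act in its pathway were described in thoracic aorta of cynomolgus macaques (Macaca fascicularis). The members were all probe sets whose gene symbol in the platform annotation was NR3C1, HSD11B1, FKBP5, TSC22D3, ZBTB16, KLF9, SGK1, CEBPD, GLUL or PDK4. A probe set gathers several short probes against one transcript into a single reading. All 10 genes were found, on 19 of the 22215 probe sets that are no controls. RNA of whole aorta tissue was labelled with biotin and read on 24 one-colour arrays carrying human probes, 6 arrays for each combination of age and sex. The groups were old males (mean age 20.0 years), young males (6.6 years), old females (21.2 years) and young females (7.2 years). The labels give a mean age for each group and no age for any single animal, and name no treatment.

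The receptor is a ligand-activated transcription factor that waits in the cytoplasm with heat shock proteins and moves to the nucleus when cortisol binds. There it induces genes such as FKBP5, TSC22D3 and KLF9 through DNA elements and lowers many inflammatory genes. In the arterial wall, smooth muscle and endothelial cells carry the receptor, and glucocorticoids are known there for raising vascular tone and restraining inflammation. HSD11B1 regenerates cortisol from inactive cortisone inside the cell, so it contributes to how much hormone reaches the receptor.

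Of the 24 arrays, 3 pairs (old females 1 and 4, young females 3 and 4, young males 3 and 4) were nearly identical. Within them the deviations from the other arrays correlated at 0.79 to 0.88, against at most 0.57 in the other array pairs. The mean of each pair stands for 1 sample, under its lower number, which left 6 old males, 5 young males, 5 old females and 5 young females. Of these, 6 stood apart from the rest (old males 2 and 4, young male 1, old females 2 and 6 and young female 3). Their median correlation with the other arrays was 0.81 to 0.83, against 0.88 to 0.93, and actin read at its 3' end exceeded actin read at its 5' end by 0.78 to 1.73 (log2) on them, against -0.25 to 1.15 on the others. The library labelled young male 1 had XIST, the transcript of the inactive X chromosome, at 10.31 on the brighter XIST probe set, where the remaining young males had 6.09 to 7.15, while its Y-linked RPS4Y1 was at 11.97. All 10 smooth muscle markers passed the filter on low values, and their mean level lay between 11.95 and 14.20 in every sample. Nothing in the labels says whether samples of a group came from separate animals, so p-values measure the spread between these samples. In bulk tissue, fewer cells of a type and less RNA per cell cannot be told apart.

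Levels are log2(intensity + 16) after quantile normalisation, so a difference of 1 is a doubling of a bright signal and less than the true change of a dim one. Levels of different probe sets are not on 1 scale, since human probes can mismatch monkey RNA to different degrees. Of the 19 member probe sets, 15 (of 8 genes) passed the filter, a mean level at or above 7.60, and 4 did not. The 4 were the only probe sets of HSD11B1 and FKBP5, the dimmest of KLF9 and the dimmer of CEBPD.

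No member probe set differed between old and young animals after correction over all 11108 tested probe sets (limma, Benjamini-Hochberg adjusted p below 0.05). In males 0 of 15 passed, where 0.018% of all probe sets did. In females 0 of 15 passed, where 0% of all probe sets did. The age effect averaged over both sexes and the difference between the sexes in the age effect also had 0 of 15, and 0% of all probe sets passed either. At an unadjusted limma p below 0.05 there were 2 in males (both of GLUL, background 3.36%), 2 in females (TSC22D3 and KLF9, background 2.84%), 1 in the average over both sexes (GLUL, background 4.38%) and 3 in the difference between the sexes (2 of GLUL and 1 of TSC22D3, background 1.94%). Probe sets of GLUL read the same gene, so each of these counts stands for 1 or 2 genes. The ranges of old and young animals overlapped for every member probe set in both sexes: 0 of 15 were separate in males, where 0.666% of all probe sets were, and 0 of 15 in females, where 0.342% were.

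The direction of the differences was mixed. In males 9 of the 15 probe sets were higher in old animals and the median difference was 0.34, against 47.6% higher and a median of -0.02 over all tested probe sets. In females 5 of the 15 were higher in old animals and the median was -0.07, against 45.5% and -0.03 over all tested probe sets. With 1 probe set per gene, the median over the 8 genes was 0.32 in males and -0.05 in females. With the adipocyte marker mean as a covariate the male median was 0.07. The female median was -0.22, with 2 of 8 genes higher, without the 6 samples that stand apart, -0.26 with all 24 arrays counted and 0.11 without old female 1.

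**Figure D1:**
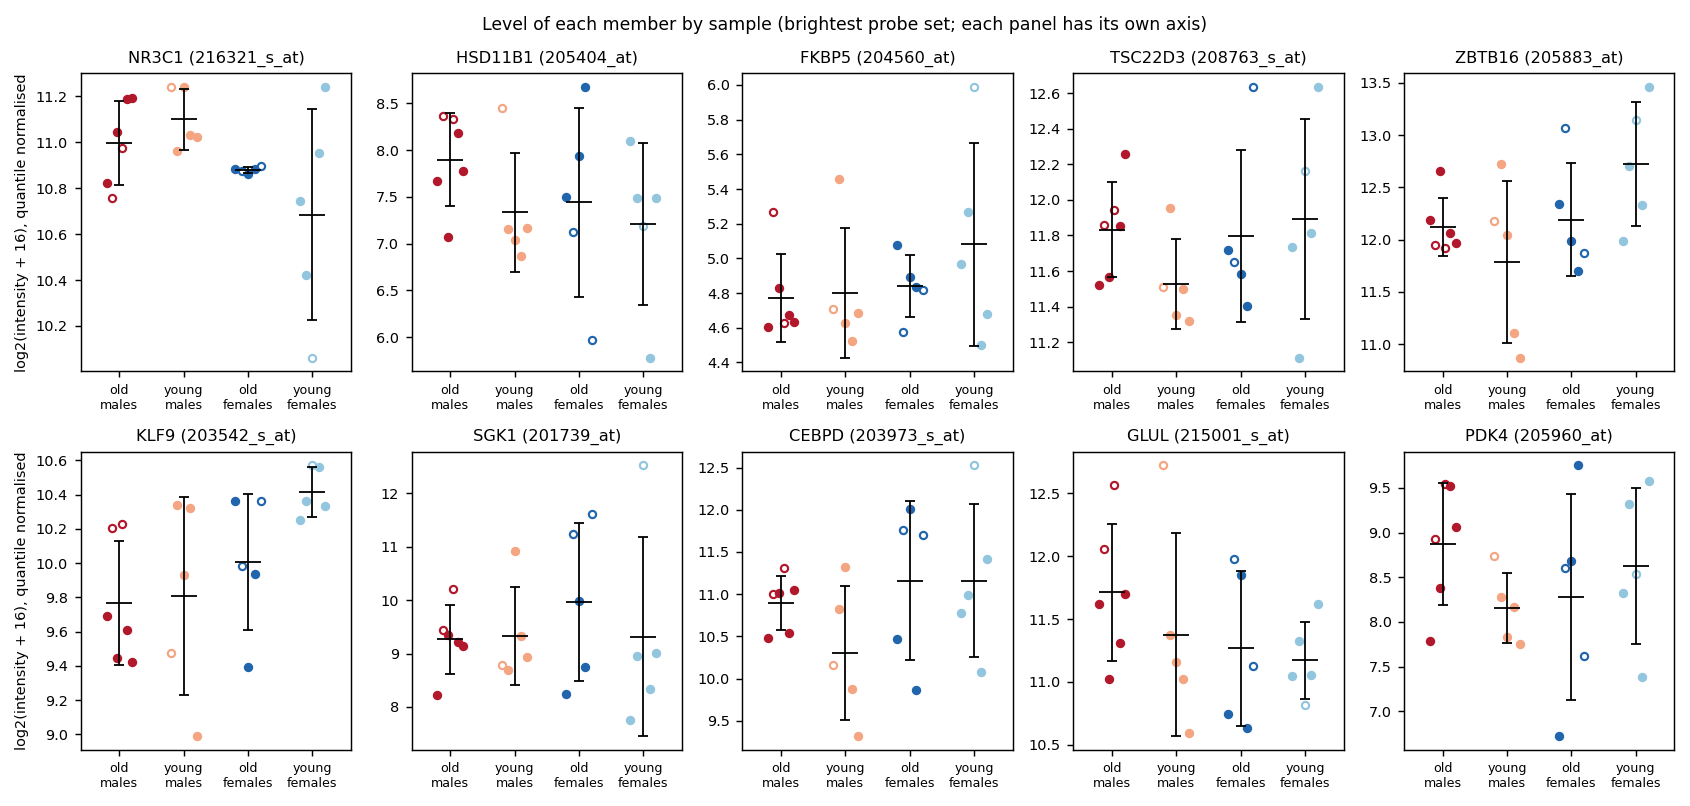
Level, log2(intensity + 16) after quantile normalisation, of the brightest probe set of each member in the 6 old males, 5 young males, 5 old females and 5 young females; each point is a sample, bars are mean ± SD, and open points are the 6 samples that stand apart from the rest. In every panel the points of old and young animals of a sex overlap, and SGK1 ranges from 7.76 to 12.52 among young females.

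The receptor itself, NR3C1, had 4 probe sets, and none gave an age difference clearly larger than its standard error. On the brightest, 216321_s_at, old males had a lowest, median and highest level of 10.76, 11.01 and 11.19, against 11.24, 10.96, 11.24, 11.03 and 11.02 in the 5 young males. The 5 old females were nearly equal, at 10.88, 10.87, 10.86, 10.88 and 10.90, against 10.75, 10.42, 10.06, 10.95 and 11.24 in young females. Old females thus sat inside the wider range of young females, whose lowest value was young female 3, one of the samples that stand apart. The old minus young difference was -0.10 ± 0.17 (SE) in males and 0.20 ± 0.18 in females (limma adjusted p = 0.9999 and 0.9996). Without the 6 samples that stand apart it was -0.002 in males and 0.04 in females.

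The other NR3C1 probe sets did not follow the brightest one. On 201866_s_at the difference was -0.11 ± 0.19 in males and -0.05 ± 0.20 in females, and on 201865_x_at it was -0.19 ± 0.33 in males and -0.01 ± 0.34 in females. On the dimmest, 211671_s_at, it was 0.34 ± 0.36 in males and 0.37 ± 0.38 in females. Over the 15 samples that do not stand apart, and after removing group means, 201865_x_at and 211671_s_at correlated at r = 0.88, while the other pairs of NR3C1 probe sets lay between -0.20 and 0.23. The 4 probe sets therefore do not give 1 reading of the receptor, and the values below that name NR3C1 alone refer to 216321_s_at.

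HSD11B1, the enzyme that makes active hormone, was below the filter at a mean level of 7.46. Old males had a lowest, median and highest level of 7.07, 7.98 and 8.37, against 8.45, 7.16, 7.04, 6.86 and 7.17 in young males. In males, 5 of the 6 old animals were above 4 of the 5 young ones, and the exception among the young was the library labelled young male 1. Old females had 7.50, 7.13, 7.94, 8.68 and 5.97, against 8.09, 7.49, 7.19, 5.78 and 7.49 in young females. With no filter on low values the differences were 0.56 ± 0.44 in males and 0.23 ± 0.46 in females, and neither passed (limma adjusted p = 1 and 0.9988).

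FKBP5, a cochaperone that lowers the hormone affinity of the receptor and is itself induced by it, was close to the floor of the scale, which is 4. Its levels ran from 4.61 to 5.27 in old males, 4.52 to 5.46 in young males, 4.58 to 5.08 in old females and 4.50 to 5.99 in young females. With no filter the differences were -0.03 ± 0.23 in males and -0.24 ± 0.24 in females. At these levels the probe set gives no order among samples.

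TSC22D3, also called GILZ, is a glucocorticoid-induced leucine zipper protein with anti-inflammatory action. On its dimmer probe set, 207001_x_at, old females had 8.86, 8.03, 7.25, 8.38 and 9.66, against 9.55, 8.72, 8.85, 9.90 and 10.06 in young females. Old males had a lowest, median and highest level of 7.71, 9.08 and 9.92, against 8.85, 9.92, 8.05, 8.24 and 7.95 in young males. The lower old females overlapped the young ones through old females 1 and 6, and in males the ranges were nearly the same. The difference was -0.98 ± 0.46 in females and 0.49 ± 0.44 in males, and the age effects differed between the sexes by 1.46 ± 0.64 (males minus females, limma adjusted p = 0.9999). Without the 6 samples that stand apart the differences were -1.39 ± 0.48 in females and 0.93 ± 0.44 in males, and the gap between the sexes was 2.33 ± 0.65, still with an adjusted p of 0.9991 in limma. The suffix _x_at marks a probe set whose probes can also match other transcripts.

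The brighter TSC22D3 probe set, 208763_s_at, showed less. Old females had 11.72, 11.65, 11.59, 11.40 and 12.63, against 11.74, 11.11, 12.16, 11.81 and 12.64 in young females, a difference of -0.09 ± 0.25. Old males ran from 11.52 to 12.26 with a median of 11.85, against 11.51, 11.95, 11.35, 11.50 and 11.32 in young males, a difference of 0.31 ± 0.24. The 2 probe sets correlated at r = 0.62 over the 15 samples after removing group means.

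ZBTB16, or PLZF, is a zinc finger repressor that glucocorticoids induce in many cell types. It had 12.35, 13.07, 11.98, 11.70 and 11.87 in old females, against 11.99, 12.70, 13.14, 12.33 and 13.46 in young females. Old males had a lowest, median and highest level of 11.92, 12.02 and 12.65, against 12.18, 12.73, 12.05, 11.11 and 10.87 in young males. Young males were the most spread group, with an SD of 0.77 against 0.28 in old males. The difference was -0.53 ± 0.33 in females and 0.34 ± 0.32 in males, and the gap between the sexes, 0.87 ± 0.46, had an adjusted p of 0.9999 in limma.

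KLF9, a zinc finger transcription factor and direct target of the receptor, was lower on average in old than in young females on both tested probe sets. On 203543_s_at old females had 9.86, 8.57, 10.64, 8.97 and 8.84, against 10.17, 9.54, 10.55, 10.46 and 10.31 in young females. Old female 3 was above all 5 young females, so the ranges overlapped. On 203542_s_at old females had 10.36, 9.99, 9.39, 9.94 and 10.36, against 10.25, 10.36, 10.57, 10.56 and 10.33 in young females. The differences were -0.83 ± 0.38 and -0.41 ± 0.25, and neither passed (limma adjusted p = 0.9996). On 203543_s_at the difference was -0.30 without the 6 samples that stand apart. In males the differences were -0.08 ± 0.37 on 203543_s_at and -0.04 ± 0.24 on 203542_s_at. The first was 0.36 with the adipocyte marker mean as a covariate and -0.28 without young male 1, and the second -0.35 without the 6 samples that stand apart, none past the correction. The third KLF9 probe set, 203541_s_at, was below the filter and ran the other way in females, at 0.58 ± 0.41 with no filter.

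**Figure D2:**
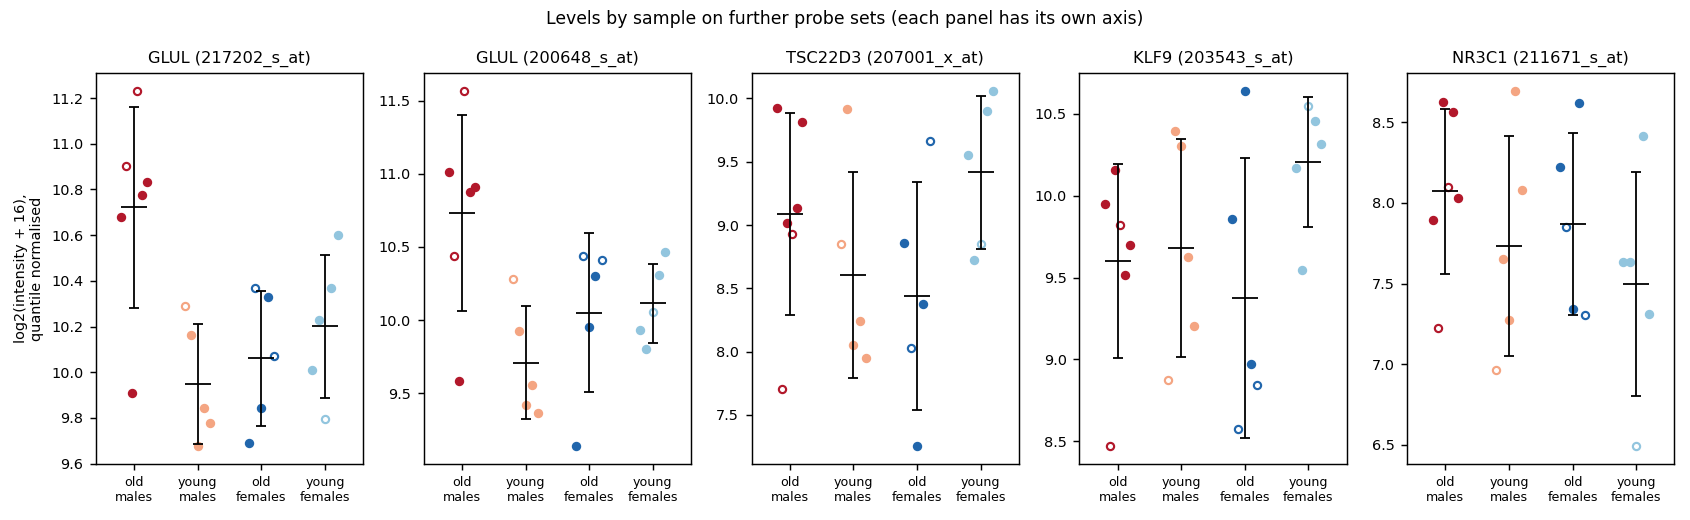
Level by sample, log2(intensity + 16) after quantile normalisation, on further probe sets of GLUL, TSC22D3, KLF9 and NR3C1, with mean ± SD and open points for the 6 samples that stand apart. In both GLUL panels 5 of the 6 old males are above all 5 young males, and old male 3 is among the young males.

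SGK1, a serum- and glucocorticoid-regulated kinase that promotes sodium transport, had a spread within groups, with SDs of 0.64 to 1.86, at least as large as its age difference in the same sex. Old females had 8.25, 11.23, 9.98, 8.74 and 11.60, against 7.76, 8.95, 12.52, 8.34 and 9.02 in young females. The highest levels, above 11, were in 3 females that stand apart from the rest, old females 2 and 6 and young female 3. Old males ran from 8.22 to 10.21 with a median of 9.28, against 8.78, 8.69, 10.92, 9.33 and 8.93 in young males. The difference was 0.64 ± 0.74 in females and -0.07 ± 0.70 in males. The female value depended on young female 3, whose arrays form 1 of the near-identical pairs: it was 1.44 without that sample and -0.18 with all 24 arrays counted, and the limma adjusted p was at least 0.83 in every alternative.

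CEBPD, a transcription factor of the acute-phase response and of early fat cell differentiation, was high in several of the same samples. Its bright probe set, 203973_s_at, had 10.47, 11.76, 12.01, 9.86 and 11.70 in old females, against 10.78, 10.99, 12.53, 10.08 and 11.41 in young females. In old males it ran from 10.48 to 11.31 with a median of 11.01, against 10.16, 10.83, 11.33, 9.87 and 9.32 in young males. Old males were tightly grouped, with an SD of 0.32 against 0.79 in young males. The difference was 0.60 ± 0.42 in males and 0.00 ± 0.44 in females, and neither passed (limma adjusted p = 0.9999 and 0.9996). The dim probe set 213006_at gave 0.12 ± 0.39 in males and 0.74 ± 0.40 in females with no filter.

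GLUL, glutamine synthetase, is the enzyme that joins ammonia to glutamate and a classical glucocorticoid-induced gene. It gave the lowest unadjusted p-values among the members in males. On 200648_s_at old males had a lowest, median and highest level of 9.59, 10.89 and 11.57, against 10.28, 9.92, 9.42, 9.56 and 9.37 in young males. On 217202_s_at old males had 9.91, 10.80 and 11.23, against 10.29, 10.16, 9.68, 9.84 and 9.78 in young males. On both probe sets old male 3 was the lowest of the old males and lay inside the range of the young ones, and young male 1 was the highest of the young ones.

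The old minus young difference in males was 1.02 ± 0.29 on 200648_s_at and 0.77 ± 0.21 on 217202_s_at, in both cases without passing the correction (limma adjusted p = 0.9999). In the 19 alternatives tried both stayed above 0, from 0.66 to 1.25 on 200648_s_at and from 0.49 to 0.93 on 217202_s_at. The lowest adjusted p over these alternatives was 0.0499 on 200648_s_at, with weights for each array, and 0.0656 on 217202_s_at. Without the library labelled young male 1 the differences were 1.17 ± 0.30 and 0.86 ± 0.22 (limma adjusted p = 0.593 for both). In females the same probe sets gave -0.07 ± 0.30 and -0.14 ± 0.22. Old females had 9.14, 10.44, 9.95, 10.30 and 10.41 on 200648_s_at, against 9.93, 9.80, 10.06, 10.31 and 10.47 in young females. The gap between the sexes was 1.09 ± 0.42 and 0.91 ± 0.31 (limma adjusted p = 0.9999).

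The brightest GLUL probe set, 215001_s_at, did not share this pattern. Old males ran from 11.02 to 12.56 with a median of 11.66, against 12.73, 11.37, 11.16, 11.02 and 10.59 in young males, where the highest value of both groups was young male 1. The difference was 0.34 ± 0.34 in males and 0.10 ± 0.35 in females. Without young male 1 it was 0.67 ± 0.30 in males. Over the 15 samples the first 2 GLUL probe sets correlated at r = 0.92 with each other, and at 0.45 and 0.32 with 215001_s_at.

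PDK4, the kinase that switches off pyruvate dehydrogenase and so favours fat over glucose as fuel, had 1 probe set. Old males had a lowest, median and highest level of 7.79, 8.99 and 9.55, against 8.74, 8.28, 7.83, 8.17 and 7.76 in young males. Old females had 6.72, 8.61, 8.68, 9.76 and 7.62, against 8.32, 9.32, 8.53, 7.39 and 9.58 in young females. The old females held both the lowest and the highest of the 21 values. The difference was 0.72 ± 0.46 in males and -0.35 ± 0.48 in females, and the gap between the sexes was 1.07 ± 0.66 (limma adjusted p = 0.9999).

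**Figure D3:**
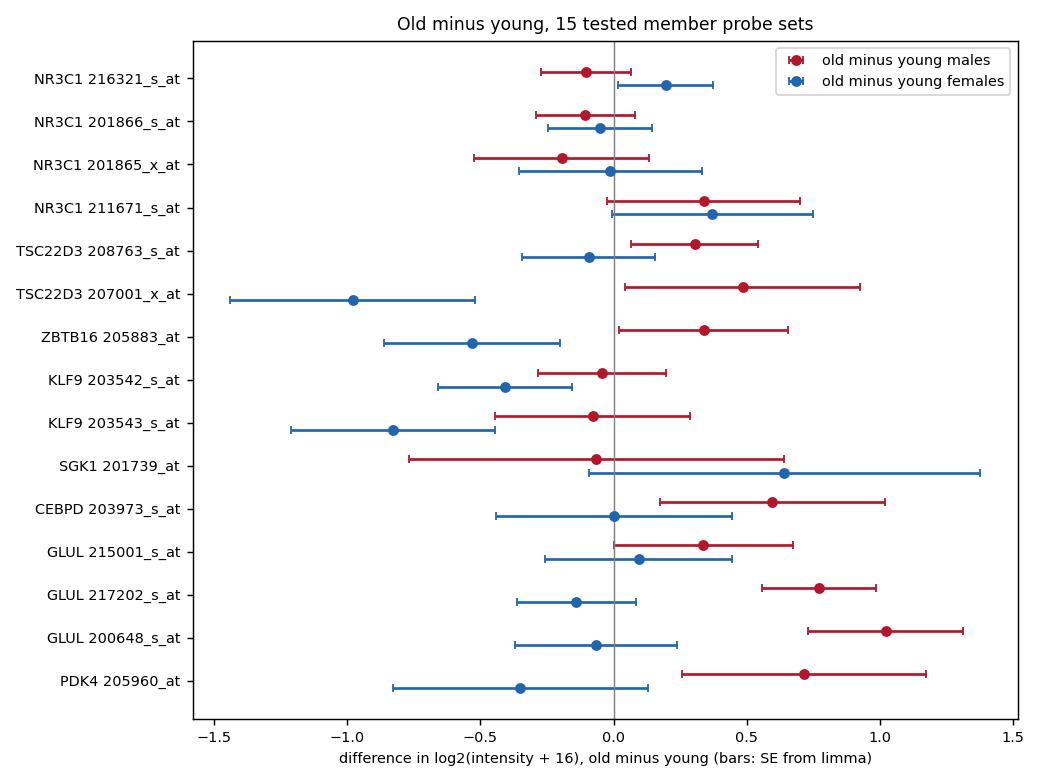
Old minus young difference in log2(intensity + 16) with its SE from limma for the 15 tested member probe sets, in males and in females. In males GLUL 200648_s_at lies farthest from 0 at 1.02 and in females TSC22D3 207001_x_at at -0.98, and no adjusted p was below 0.05.

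GLUL and PDK4 were set beside adipocyte markers. Over the 15 samples that do not stand apart, r was 0.205 for GLUL 215001_s_at and 0.67 for PDK4. Neither passed (permutation adjusted p = 0.970 and 0.521 over 80 relations), and the other GLUL probe sets are given below. The mean level of the adipocyte markers, over 11 tested genes, was 10.65 as the median of old males (range 8.26 to 11.99), against 8.78 in young males (7.98 to 11.67). In males 10 of the 11 were higher in old animals, with a median difference of 1.38 and 0 of 11 past the correction. In females 7 of the 11 were higher, with a median of 0.10 and ranges of 8.38 to 10.97 in old and 8.55 to 10.94 in young females. Old male 3, the old male with the lowest GLUL, had the lowest adipocyte mean of its group at 8.26, and young male 1 had the highest of its group at 11.67. With the adipocyte mean as a covariate the male difference was 0.66 for GLUL 200648_s_at, 0.49 for 217202_s_at, -0.08 for 215001_s_at and 0.22 for PDK4. The part of fat cells in these differences was not tested beyond that.

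**Figure D4:**
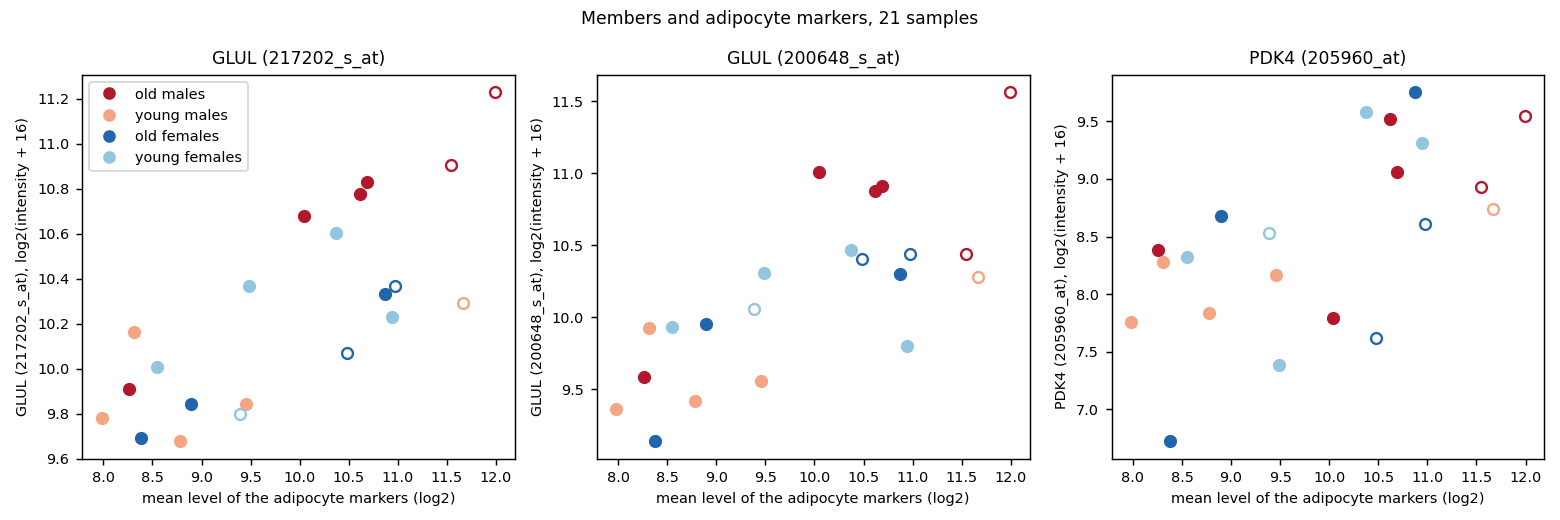
Level of 2 GLUL probe sets and of PDK4 (vertical axes, log2(intensity + 16)) against the mean level of 11 adipocyte markers (horizontal axes) in the 21 samples, coloured by group, with open points for the 6 samples that stand apart. Old males other than old male 3 lie at adipocyte means of 10.04 and more, and young males other than young male 1 at 9.45 and less.

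Of the 4 tested brown adipocyte markers 3 were higher in old males, with a median difference of 1.02, and in females the median was -0.12. For the other cell types the male medians were -0.09 for 10 smooth muscle genes, 0.20 for 9 endothelial genes, 0.07 for 8 macrophage genes, -0.47 for 8 fibroblast genes, -0.28 for 4 lymphocyte genes and -0.17 for 3 red cell genes. In females all 10 smooth muscle markers were lower in old animals, with a median of -0.38 and 0 past the correction, and the 8 fibroblast markers had a median of -0.43. The female medians were 0.55 for the 4 lymphocyte genes, 0.59 for the 3 red cell genes (3 of 3 higher), 0.22 for the 8 macrophage genes and -0.17 for the 9 endothelial genes, again with 0 past the correction. The smooth muscle mean ran from 11.95 to 13.95 in old females, against 12.41 to 14.01 in young females. The samples with its lowest values, old female 6 and young female 3, had the highest SGK1 of their groups.

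The rest of the pathway was read from 5 lists, none of whose genes passed the correction in either sex. Of 45 other symbols listed for genes that glucocorticoids are known to induce, TMT1A and METTL7A among them for the same gene, 38 were tested. Of the 38, 27 were higher in old males, with a median of 0.31, against 48% and -0.01 over all 6943 genes. In females 13 of the 38 were higher, with a median of -0.13, against 46.3% and -0.02. That female median was -0.07, with 15 of 38 higher, without the samples that stand apart, and -0.04 without young female 3 alone. With the adipocyte mean as a covariate the male median was 0.09 with 22 of 38 higher, and without the samples that stand apart it was 0.28 with 26 of 38 higher. The genes with the smallest p in males were ACSL1, which activates fatty acids and was higher by 1.14 ± 0.47, IGF2BP2, an RNA-binding protein at -1.44 ± 0.68, and MAOA, a monoamine oxidase at 0.59 ± 0.30. In females they were STOM at -0.57 ± 0.29, the transcription factor FOXO3 at -0.31 ± 0.18 and CRISPLD2 at -0.75 ± 0.43.

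Of 17 chaperone genes 15 were tested, 11 of them higher in old males (median 0.07) and 4 higher in old females (median -0.16). The male median turned to -0.02 without young male 1 and to -0.005, with 7 of 15 higher, without the samples that stand apart, and it was 0.23, with 13 of 15 higher, with the adipocyte covariate. HSP90AB1, a main chaperone of the unbound receptor, averaged 12.96 ± 0.39 in old males and 12.81 ± 0.42 in young males, and 12.74 ± 0.34 in old females and 13.06 ± 0.18 in young females (SD). Its female difference, -0.33 ± 0.21, had the smallest p of the list in females, followed by PPP5C at -0.47 ± 0.31 and FKBP4 at -0.24 ± 0.16, and in males HSPA4 at 0.14 ± 0.16 had the smallest. Of 19 coregulators 14 were tested, with medians of -0.08 in both sexes. CREBBP, an acetyltransferase that coactivates nuclear receptors, was at -0.46 ± 0.21 in males and 0.03 ± 0.22 in females, and HDAC2, a deacetylase, at -0.06 ± 0.19 in males and -0.38 ± 0.20 in females.

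A list drawn up as inflammatory genes that the receptor represses had 9 of 19 tested. In old females 6 were higher, with a median of 0.29, led by the protease MMP9 at 0.95 ± 0.42 and TNFAIP3 at 0.81 ± 0.42. TNFAIP3 is an inhibitor of NF-kappaB signalling, so it is not a clear member of such a list. The median without it was not computed. In males 4 were higher and the median was -0.06, with the chemokine CCL5 at -0.67 ± 0.37 and MMP9 at -0.56 ± 0.40. That male median turned to 0.13 without young male 1 and was -0.24 with the adipocyte covariate. The female median was -0.20 with all 24 arrays counted, when the near-identical pair of young females 3 and 4 enters as 2 samples. Of 12 other ligand and receptor genes only 3 were tested: ABCB1, a transporter that exports glucocorticoids, at 0.57 ± 0.27 in males and 0.19 ± 0.28 in females, NR3C2, the mineralocorticoid receptor, at -0.11 ± 0.36 in males and 0.08 ± 0.37 in females, and H6PD, which supplies HSD11B1 with NADPH, at 0.04 ± 0.27 in males and -0.20 ± 0.28 in females.

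Covariation was measured between the brightest probe sets of the 10 members over the 15 samples that do not stand apart, with group means removed and values shuffled within groups 100000 times. None of the 45 pairs passed after Benjamini-Hochberg adjustment, by Pearson's r or by Spearman's rho, and 4 had an unadjusted permutation p below 0.05. Of the 45 correlations 32 were positive, with a median of 0.18. Leaving out the 9 pairs with FKBP5, which is near the floor, 26 of 36 were positive, with a median of 0.18 and a range of -0.25 to 0.78.

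**Figure D5:**
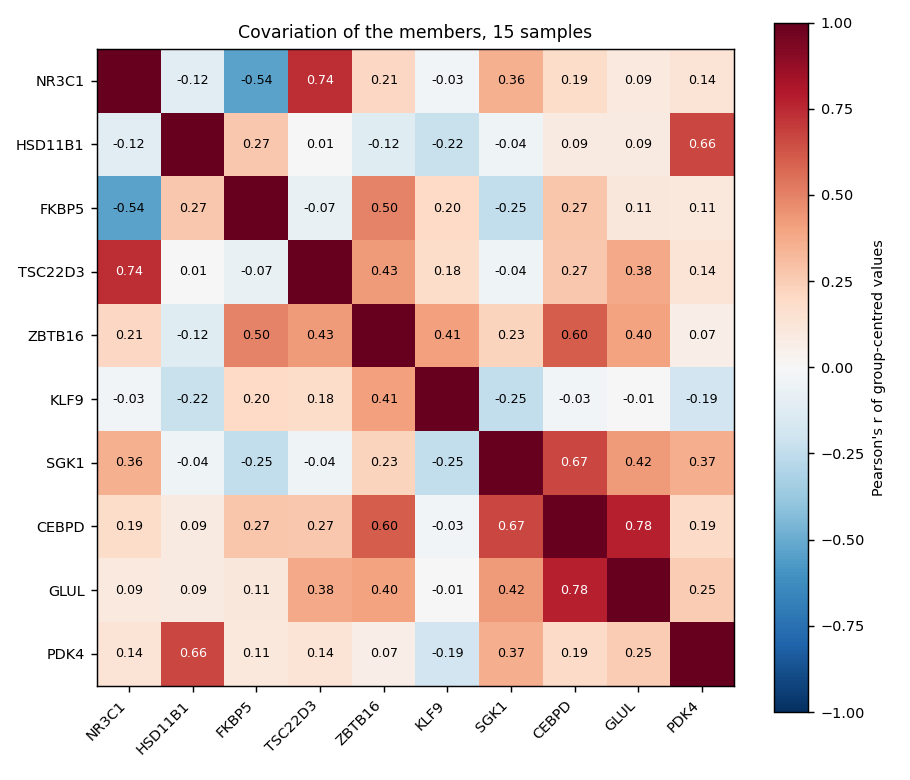
Pearson's r between the brightest probe sets of the 10 members over 15 samples, after removing group means, on a colour scale from -1 to 1. CEBPD with GLUL is highest at 0.78, and the values for FKBP5 rest on a probe set near the floor that gives no order among samples.

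CEBPD and GLUL had the highest correlation, r = 0.78 and rho = 0.77 (permutation p = 0.0076 and 0.00715, adjusted 0.342 and 0.322), and r = 0.71 without the 2 samples farthest from the median of CEBPD. This held for GLUL 215001_s_at alone: with CEBPD, r was -0.04 for 200648_s_at and -0.14 for 217202_s_at, values added after the first was seen. The 6 samples that stand apart had r = -0.84 between CEBPD and 215001_s_at without centring, and with all 21 samples pooled r was 0.37.

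NR3C1 and TSC22D3, receptor and target, had r = 0.74 and rho = 0.58 (permutation p = 0.0450 and 0.0659, adjusted 0.501 and 0.566). Without the 2 samples farthest from the NR3C1 median r was 0.25, a step that also narrows the range of NR3C1. With all 21 samples pooled, r for NR3C1 and TSC22D3 was 0.28, and in the 6 samples that stand apart it was -0.38 without centring. SGK1 and CEBPD had r = 0.67 and rho = 0.55 (permutation p = 0.0440 and 0.0881, adjusted 0.501 and 0.566), with r = 0.36 without the 2 farthest SGK1 values. In the 6 samples that stand apart, SGK1 and CEBPD had r = 0.97 without centring, so differences between groups enter that value. HSD11B1 and PDK4 had r = 0.66 and rho = 0.60 (permutation p = 0.0389 and 0.0758, adjusted 0.501 and 0.566), and r = 0.79 without the 2 farthest HSD11B1 values.

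Members were also set against the means of 8 cell type marker lists, 80 relations in all, and none passed after adjustment. PDK4 had r = 0.77 and rho = 0.82 with brown adipocyte markers (permutation p = 0.0236 and 0.0146, adjusted 0.406 and 0.305), and r = 0.70 without the 2 samples farthest from the median of the marker mean. PDK4 with adipocyte markers had r = 0.67 and rho = 0.73 (permutation p = 0.0465 and 0.0210, adjusted 0.521 and 0.305), and r = 0.75 without the 2 farthest. As drawn up, the adipocyte and brown adipocyte lists share the gene CIDEA, so these 2 relations may not be separate. With smooth muscle markers PDK4 had r = -0.78 and rho = -0.74 (permutation p = 0.0160 and 0.0210, adjusted 0.406 and 0.305), and r = -0.72 without the 2 farthest. With endothelial markers PDK4 had r = 0.63 and rho = 0.72 (permutation p = 0.0692 and 0.0374, adjusted 0.521 and 0.427), and r = 0.55 without the 2 farthest. With all 21 samples pooled, r for PDK4 was -0.22 with smooth muscle markers, 0.59 with adipocyte markers, 0.68 with brown adipocyte markers and 0.53 with endothelial markers. SGK1 with endothelial markers had r = 0.69 and rho = 0.74 (permutation p = 0.00666 and 0.00724, adjusted 0.406 and 0.290), and r = 0.59 without the 2 farthest. KLF9 with red cell markers had the smallest rank p of the 80, at r = -0.70 and rho = -0.80 (permutation p = 0.0254 and 0.00493, adjusted 0.406 and 0.290), with r = -0.60 without the 2 farthest and -0.52 with all 21 samples pooled. GLUL 215001_s_at with endothelial markers had r = 0.60 and rho = 0.59 (permutation p = 0.0431 and 0.0430, adjusted 0.521 and 0.430), with r = 0.57 without the 2 farthest and 0.39 with all 21 samples pooled.

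The 3 GLUL probe sets were set against CEBPD and 3 marker lists, in 12 relations chosen after values were seen. With adipocyte markers r was 0.74 and rho 0.70 for 217202_s_at (permutation p = 0.0189 and 0.0211, adjusted 0.0754 and 0.0686 over the 12), and r was 0.55 without the 2 farthest values. For 200648_s_at r was 0.63 and rho 0.51 (permutation p = 0.0547 and 0.104, adjusted 0.131 and 0.251). For 215001_s_at r was 0.20 and rho 0.25 (permutation p = 0.607 and 0.461, adjusted 0.751 and 0.692). That probe set had r = 0.81 and rho = 0.71 with fibroblast markers (permutation p = 0.0162 and 0.0229, adjusted 0.0754 and 0.0686 over the 12). Over the planned 80 relations the permutation adjusted p of this fibroblast relation was 0.406 for r and 0.305 for rho. These values depended on the samples used. With all 21 samples pooled, r with adipocyte markers was 0.80 for 217202_s_at, 0.71 for 200648_s_at and 0.68 for 215001_s_at. The permutation adjusted p over the 12 was 0.0024, 0.00708 and 0.0164. Since the 12 were chosen after values were seen, these adjusted p-values can be too low and are not counted as passing. Over the planned 80 relations, 215001_s_at with adipocyte markers had a permutation adjusted p of 0.109 in the 21 samples. In the same 21 samples 215001_s_at with fibroblast markers turned to r = -0.28 and rho = -0.22 (permutation adjusted p = 0.385 for r). The 21 include the 6 samples that stand apart, so the pooled values mix 2 clusters of samples.

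The genes most like 3 members over the same 15 samples, out of 6943 and by Pearson's r with group means removed, are given as a description. PDK4 was most like AIFM1 (0.94), DECR1 (0.90), SUCLA2 (0.89), MDH2 (0.89) and DNAJC2 (0.89), of which AIFM1, DECR1, SUCLA2 and MDH2 encode mitochondrial proteins. NR3C1 was most like OSBPL8 (0.90), MXRA7 (0.86), ADD1 (0.83), TRIM22 (0.81) and GOLGB1 (0.80). ZBTB16 was most like ZDHHC6 (0.82), MAFG (0.82), PHKB (0.82), SETD1B (0.81) and OSGEP (0.78). None is named for FKBP5, whose levels near the floor give no order among samples. With 15 points and 6943 genes compared, correlations of this size are the upper tail of a long list.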

How the data were processed

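The series matrix holds the authors' deposited intensities on a linear scale for each probe set and array. Their summarisation and scaling are not given in the sources. Phenol and chloroform extraction of total RNA and labelling as biotinylated antisense RNA are described per the labels' protocols. The platform annotation gave 1 gene symbol to 19064 probe sets, several to 1043 (not named) and none to 2108. The deposited array medians ran from 144.3 to 264.1, so log2(intensity + 16) was quantile normalised over the 24 arrays. The 62 control probe sets were left out, and of 22215 others the 11108 with a mean level at or above the median were tested. One limma 3.58.1 fit (R 4.3.3, a mean per group, eBayes with trend, Benjamini-Hochberg within each comparison) held all 21 samples. It was checked on simulated data with independent noise and planted differences larger than those of any member. That check cannot show how well smaller differences are found. Near-identical arrays were those whose deviations correlated above 0.7 (they were averaged); samples stood apart where the median correlation with other arrays was below 0.85. Alternatives were another pseudocount (1), median centring, no filter, 24 arrays, array weights, a replicate block, an adipocyte covariate, and leaving out the samples that stand apart or each sample in turn. Replicate numbers were not treated as pairs in the main fit. Of 10 same-numbered pairs, with correlations of -0.42 to 0.51, 4 were above 0.1. Differently numbered pairs were not compared, so these values cannot decide whether the numbers pair the samples. Every member and probe set is named; of each pathway list, up to 3 genes with the smallest p in either sex were eligible. The members and gene lists were chosen with earlier results of these data known. The number of arrays limits the precision. Sequences of the members are not shown, and coordinates were not used here.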

Additional observations from a re-analysis of the deposited data

Results flagged for a closer look

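In 7 of 68 groups of 5 or 6 samples (10.3%), 1 sample lay far from the others of its group. The rule flags about 1 in 20 groups of independent, normally distributed values. Here the same samples enter many of the 68 groups. The share over all probe sets was not computed, so it is not known whether 10.3% is more than usual. SGK1 was 12.52 in young female 3, against 7.76 to 9.02 in the other young females, and 10.92 in young male 3, against 8.69 to 9.33 in the other young males. Both samples are averages of near-identical arrays. Of the samples named in this section, young female 3, young male 1, old female 6 and old male 2 are among those that stand apart from the rest. Young male 3, old male 3 and young male 2 are not. HSD11B1 was 8.45 in the library labelled young male 1, against 6.86 to 7.17 in the other young males. ZBTB16 was 12.65 in old male 3, against 11.92 to 12.19 in the other old males. TSC22D3 on 208763_s_at was 12.63 in old female 6, against 11.40 to 11.72 in the other old females. FKBP5 was 5.27 in old male 2, against 4.61 to 4.83 in the other old males, and 5.46 in young male 2, against 4.52 to 4.71 in the other young males, all near the floor of 4.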

How the results depend on the processing

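The member results kept their side of the threshold in all alternatives but 1, GLUL 200648_s_at in males with array weights (1.10 ± 0.23, limma adjusted p = 0.0499). Over the 15 probe sets in males, in females and in the difference between the sexes (45 results, 990 alternatives), 921 kept the direction and 69 turned that of an uncalled value, in 19 results. The probe sets called in males, 2 in all and none a member, were 0 with median-centred arrays, with no filter and with the adipocyte covariate, 25 with array weights, and 0 to 2 with each sample left out (0 without any one of old males 1, 2, 5 and 6 or young males 2, 3, 5 and 6, and 1 without young male 1). The cause was not tested. For the average over both sexes the count was 1 instead of 0 with the replicate block and without the samples that stand apart, and under the replicate block no member passed in any comparison. Leaving out each sample kept the counts for females, the average and the difference between the sexes at 0.

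Direction turned in males for NR3C1 with array weights (0.0031), GLUL 215001_s_at with the adipocyte covariate (-0.077, and -0.12 for the difference between the sexes), and with 1 sample left out for KLF9 203542_s_at (-0.25 to 0.088) and SGK1 (-0.25 to 0.33). In females it turned for SGK1 with 24 arrays (-0.18); for CEBPD with 24 arrays (-0.34), median centring (-0.092), the adipocyte covariate (-0.0025) and without the samples that stand apart (-0.037); and for GLUL 215001_s_at with median centring (-0.021), array weights (-0.084) and without those samples (-0.18). With 1 sample left out, female differences ran from -0.27 to 0.34 for CEBPD, -0.082 to 0.25 for GLUL 215001_s_at, -0.16 to 0.16 for GLUL 200648_s_at, -0.72 to 0.039 for PDK4 and -0.30 to 0.092 for TSC22D3 208763_s_at. For the remaining NR3C1 and KLF9 probe sets, the range over all alternatives crossed 0 in males for NR3C1 201866_s_at (-0.23 to 0.0064) and 201865_x_at (-0.37 to 0.069) and KLF9 203543_s_at (-0.28 to 0.36), and in females for 201866_s_at (-0.20 to 0.087) and 201865_x_at (-0.17 to 0.18). For the difference between the sexes it crossed 0 for 201866_s_at (-0.22 to 0.096), 201865_x_at (-0.37 to 0.046) and 211671_s_at (-0.26 to 0.22). The cause was not tested.

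Among pairs of members, 1 passed with all 21 samples pooled (SGK1 with CEBPD, r = 0.79, permutation adjusted p = 0.0482) and 1 without centring (CEBPD with GLUL, r = 0.76, permutation adjusted p = 0.0396), and 0 with any sample left out. Among members and marker lists, 1 passed without centring (PDK4 with brown adipocyte markers, r = 0.78) and 0 to 1 with a sample left out (SGK1 with endothelial markers, r = 0.80, without old male 3). The list medians and the GLUL relations by probe set were added after the data were seen. Human probes read with monkey RNA, and signals near the floor for FKBP5, limit what a low level can show.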
